A study of Mus musculus with 6 samples.

Results

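The contrast set the 2 Control libraries of cultured mouse colon ILC2s against all 4 libraries that received FK866, of which 2 also received succinate. All 6 libraries of the series entered it, 6 of 6, and were placed in the 2 sets by their treatment labels. What Control chromatin had and neither FK866 group had, and the reverse, was read at 101435 merged peak regions and at the windows of 15891 protein-coding genes. Of these, 879 regions and 40 gene windows were held by both Control libraries and by none of the 4, and 238 regions and 9 gene windows by all 4 and by neither Control.

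Group 2 innate lymphoid cells (ILC2s) had been sorted from the gut and kept in every group with the cytokines IL-33, IL-25, IL-7 and IL-2, which sustain and activate them, and the cultured cells were sorted before library preparation. The Control group had no further agent named, the FK866 group received FK866, and the FK866 plus succinate group received both. Chromatin was profiled by CUT&Tag, in which an antibody brings a transposase to its target so that nearby DNA is cut out and sequenced. Not given in the sources used here were the antibody's target, both doses, the duration, and the strain and age of the mice. Nothing in the labels tells if both libraries of a group came from separate cultures or animals, so every p measures only the spread between these samples.

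FK866 blocks NAMPT, the enzyme that starts the salvage of nicotinamide back to NAD. NAD carries electrons for glycolysis and the tricarboxylic acid (TCA) cycle and is used up by sirtuins and PARPs, which act on chromatin among other substrates. Succinate is a TCA intermediate that feeds electrons to the respiratory chain without needing NAD at that step.

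Below, a region is called lost when peaks of both Control lists and of none of the 4 FK866 lists touch it by 1 bp or more, and gained in the reverse case. For genes, this was read in a 4-kb window centred on a lead site, defined for each gene as the summit with the highest mean rank over all 6 lists in the gene or up to 2 kb from it. A gene's value is the percentage of that window covered by peaks. It records where peaks lie and how wide they are, not signal height. Coordinates are those of mm10, and the gene table gives spans without exons or introns.

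For 17 lost genes the lead site lay within 2 kb of an annotated start with a known promoter stretch, and at 9 of them peaks of both Control libraries and of no FK866 library touched that stretch. Among the 6 of the 17 with the highest coverage these were Rdh1, a retinol dehydrogenase gene, Kcns3, a potassium channel subunit, Cpne8, a copine, and Tox3, a nuclear protein with an HMG box, which are shown to let their sequences be compared. The promoter of Fmn2, an actin-nucleating formin, is shown because its window had the highest mean Control coverage of all lost windows, with peaks that began just downstream. Each runs from 250 bases before to 50 bases after an annotated start, 5′ to 3′, from RefSeq on GRCm38.p6, and capitals mark every CG dinucleotide.
Fmn2 chr1:174501575-174501874 (plus strand): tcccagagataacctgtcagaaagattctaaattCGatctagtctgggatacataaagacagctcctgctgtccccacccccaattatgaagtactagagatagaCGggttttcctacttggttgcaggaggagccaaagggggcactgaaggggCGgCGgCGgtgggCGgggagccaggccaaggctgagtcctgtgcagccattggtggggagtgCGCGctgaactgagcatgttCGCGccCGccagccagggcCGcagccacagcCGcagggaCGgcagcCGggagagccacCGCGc
Rdh1 chr10:127759513-127759812 (plus strand): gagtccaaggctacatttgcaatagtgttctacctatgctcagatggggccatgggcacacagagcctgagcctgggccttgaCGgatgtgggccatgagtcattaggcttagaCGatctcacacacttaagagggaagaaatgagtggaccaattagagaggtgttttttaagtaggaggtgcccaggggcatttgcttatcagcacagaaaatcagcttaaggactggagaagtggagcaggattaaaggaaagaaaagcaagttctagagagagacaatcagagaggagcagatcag
Kcns3 chr12:11150324-11150623 (minus strand): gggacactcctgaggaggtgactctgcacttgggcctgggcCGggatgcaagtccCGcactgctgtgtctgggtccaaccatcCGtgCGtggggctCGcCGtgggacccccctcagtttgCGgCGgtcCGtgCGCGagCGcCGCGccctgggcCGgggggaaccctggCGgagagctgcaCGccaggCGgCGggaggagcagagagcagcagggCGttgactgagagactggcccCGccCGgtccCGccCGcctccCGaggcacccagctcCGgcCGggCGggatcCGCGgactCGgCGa
Cpne8 chr15:90679339-90679638 (minus strand): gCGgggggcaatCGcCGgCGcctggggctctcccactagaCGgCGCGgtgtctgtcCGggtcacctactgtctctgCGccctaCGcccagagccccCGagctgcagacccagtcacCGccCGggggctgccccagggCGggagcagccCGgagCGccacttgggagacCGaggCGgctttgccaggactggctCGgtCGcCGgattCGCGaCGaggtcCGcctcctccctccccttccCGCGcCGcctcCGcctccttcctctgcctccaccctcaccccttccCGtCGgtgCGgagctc
Tox3 chr8:90348203-90348502 (minus strand): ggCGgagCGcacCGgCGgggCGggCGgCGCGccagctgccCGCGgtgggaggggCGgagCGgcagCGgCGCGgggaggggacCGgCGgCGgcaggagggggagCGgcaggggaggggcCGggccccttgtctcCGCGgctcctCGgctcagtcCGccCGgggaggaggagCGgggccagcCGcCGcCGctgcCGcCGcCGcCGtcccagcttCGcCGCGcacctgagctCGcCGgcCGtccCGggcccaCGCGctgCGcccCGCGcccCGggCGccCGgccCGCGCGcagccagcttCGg
The 5 stretches held 17, 2, 32, 32 and 52 CG dinucleotides in the order shown, and their GC content was 61.0%, 47.7%, 74.0%, 73.7% and 85.3%. Of the 5 stretches, Rdh1's had the fewest CG dinucleotides and Tox3's the most.

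Over the whole set, a promoter stretch was matched for 32 of the 40 lost genes and for 12675 of the 15891 genes. The lost genes' promoters had a median of 8 CG dinucleotides and 54.8% GC, beside 20 and 60.7% over all matched genes. The lead site lay within 2 kb of the promoter start for 17 of the 32 (53.1%) and for 82.6% of all matched genes. Among 5 short motifs searched on both strands, the GATA motif AGATAA was in 6 of the 32 (18.8%) and in 6.54% of all promoters. The ETS motif CCGGAA was in 5 (15.6%) and 25.3%, the AP-1 motif TGANTCA in 3 (9.38%) and 5.06%, the TATA box TATAAA in 2 (6.25%) and 7.39%, and the E-box CACGTG in 1 (3.12%) and 9.60%. For the 28 matched genes of windows lost with peaks past an adjusted p of 0.05, the median was 12 CG dinucleotides and 58.5% GC. Their shares were 14.3% for GATA, 14.3% for ETS, 7.14% for AP-1, 0% for the TATA box and 10.7% for the E-box. These are descriptions of a set chosen by its peaks, without a test, and a match is not a binding site. Lost windows had weak peaks, at a median rank of the 31.8th percentile beside the 87.2th for windows covered in all 6 libraries. No comparison was made with promoters of other weakly covered genes. The differences are therefore not shown to be particular to windows lost with FK866.

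At Kcns3 (window chr12:11148144-11152143, lead site inside the gene) Control peaks covered 15.02% and 12.9% of the window and all 4 FK866 libraries had no peak. The Control peaks overlapped each other and each passed an adjusted p of 0.05 within its own list, with -log10 p values of 3.88 and 4.09. At Cpne8 (chr15:90677452-90681451) Control coverage was 15.5% and 10.9%, again with both peaks past the adjusted p and none in the 4. At both genes the peaks ranked at the 50.6th percentile of -log10 p in Control 1 and the 41.4th in Control 2, near the middle of each list.

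At Fmn2 (chr1:174500160-174504159) Control coverage was 26.2% and 28.9%, or 27.6% ± 1.93 (SD, n = 2), and 0% in each of the 4 FK866 libraries. On these same values, by which the window was chosen, the limma fit gave a difference of -27.56 percentage points (SE 2.54) with an adjusted p of 0.354. At Rdh1 (chr10:127757376-127761375) the Control values were 19.98% and 9.80%. At both genes 1 of the 2 Control lists passed the adjusted p of 0.05, and so did 1 of the 2 at Tox3.

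The other named lost windows were led by Gsg1l, an auxiliary subunit of AMPA receptors (38.2% and 12.9% in Control), Plce1, a phospholipase C (18.2% and 20.3%), and Rfx4, a winged-helix transcription factor (27.2% and 10.9%). Cd300lg, a CD300 family receptor (18.3% and 16.3%), Kcnk18, a potassium channel (18.7% and 14.0%), Flacc1 (15.7% and 17.0%) and Cyp24a1, the hydroxylase that degrades vitamin D (15.7% and 16.2%), followed. Odf4, a sperm-tail protein, Loxl1, a lysyl oxidase-like enzyme, Fat2, an atypical cadherin, and Tmc2, a hair-cell channel protein, had Control means between 12.2% and 14.7%. None of these 15 genes was a member of the immune or metabolic lists examined here.

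The remaining lost windows were those of Tox3, Cxcr1, Cx3cl1, Ccl21b, Lct, Mylk3, Fndc1, Atp12a, Gucy2d, C2cd4b, Cfap69, Cnnm1, Slc35f3, Phldb2, Gbgt1, Myocos, Armc12, Cela2a, Fancd2os, Potegl, Tdg-ps, Gm3239, Gm5709, Gm7102 and Gm42226. Cxcr1, Cx3cl1 and Ccl21b encode a chemokine receptor and chemokines. The 2 Control libraries' peaks shared no base at Cxcr1 or at Cx3cl1, so neither window was one site lost. Over all 40 windows, the Control peaks shared a base in 31 and did not in 9, both Control peaks passed an adjusted p of 0.05 in 10, and neither did in 16. Control coverage of the 40 ranged from 7.47% to 27.6% with a median of 11.2%, beside a median of 39.9% over the 13735 windows covered in all 6 libraries.

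The 9 gained windows were narrow as well. At Pla2g3, a secreted phospholipase A2 (chr11:3499015-3503014, beyond the gene's end), both Control libraries had 0%, the FK866 libraries 15.7% and 17.6%, and the FK866 plus succinate libraries 12.4% and 18.5%. On these same values, by which the window was chosen, the difference was 16.04 points (SE 2.88) with an adjusted p of 0.354 by limma. No peak there passed an adjusted p of 0.05 in its list. A gained region in this window, chr11:3500333-3501446, lay inside another gene, Inpp5j. At Slc27a6, a fatty acid transport protein, the 4 values were 9.32%, 6.75%, 12.7% and 22.9%, with peaks over a common base in all 4 libraries.

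Fsd1 had 7.40% and 36.0% with FK866 and 30.02% and 23.2% with FK866 plus succinate. Ccdc39, needed to assemble motile cilia, had 9.40%, 9.25%, 14.4% and 15.9%, and Bmpr1b, a receptor for bone morphogenetic proteins, had 10.05%, 10.2%, 13.7% and 8.20%. Tomm20l, Lman1l, 4930548H24Rik and Gm41844 completed the set, with means over the 4 libraries between 5.17% and 10.5%. In 4 of the 9 the peaks of all 4 libraries shared a base, and in none did all 4 peaks pass an adjusted p of 0.05. Lost windows had a median peak rank at the 31.8th percentile and gained windows at the 36.4th, beside the 87.2th for windows covered in all 6 libraries.

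**Figure D1:**
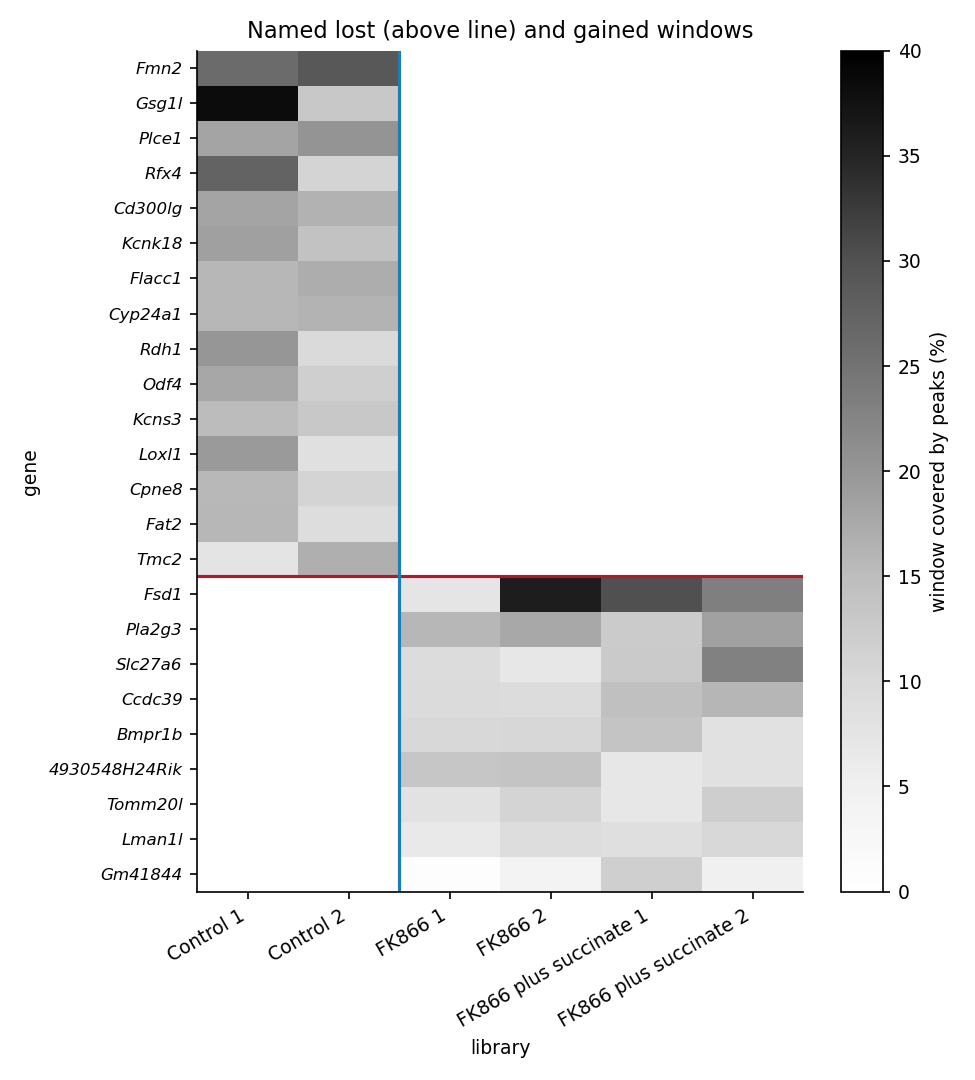
Percentage of the 4-kb window covered by peaks (grey scale) for the 15 named lost windows, above the horizontal line, and the 9 gained windows below it, in each of the 6 libraries (columns, Control left of the vertical line). Lost windows are blank in all 4 FK866 columns by definition, and their Control values differ between the 2 libraries, as at Gsg1l with 38.2% and 12.9%.

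Among regions, 879 of 101435 were lost, 0.867% of all tested, and 238 were gained, 0.235%. Among genes, 40 of 15891 windows were lost (0.252%) and 9 gained (0.0566%). These shares are the background of the contrast itself. Of the regions with a peak in both Control libraries, 22049 also had one in all 4 FK866 libraries, 2956 in 3, 2150 in 2, 1536 in 1 and 879 in 0. Presence in Control was thus followed by presence in all 4 in 74.6% of cases and by absence from all 4 in 2.97%.

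Of the regions with a peak in neither Control library, 35039 were held by 1 FK866 library, 5175 by 2, 1348 by 3 and 238 by 4. The 1536 near losses were spread over the 4 libraries, with 382 and 340 kept by the FK866 libraries and 356 and 458 by the FK866 plus succinate libraries. The 1348 near gains missed one of the same libraries in 410, 363, 330 and 245 cases. No single FK866 library accounted for most of either set.

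**Figure D2:**
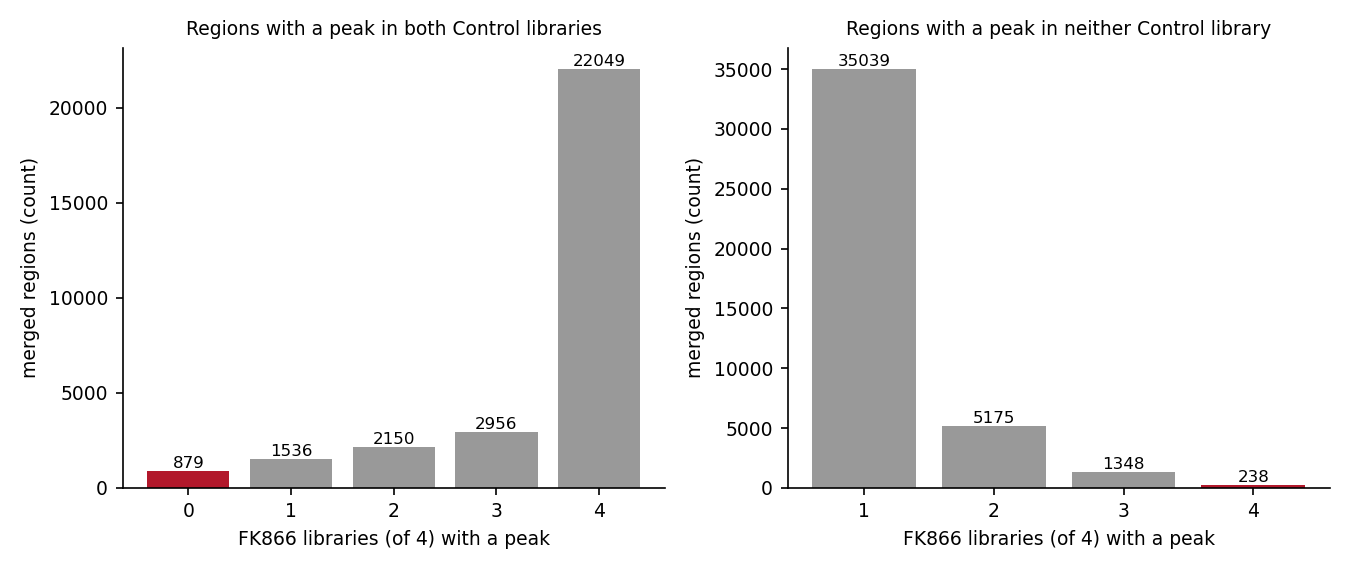
Number of merged regions (y axis) by how many of the 4 FK866 libraries had a peak in them (x axis), for regions with a peak in both Control libraries (left) and in neither (right). Red bars are the 879 lost and 238 gained regions, and both are the smallest bar of their panel.

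Whether these counts were large was judged by an exact permutation test, which takes each of the 15 ways of choosing 2 libraries of 6 as the odd pair and counts lost and gained again. The smallest p it allows is 0.0667. The 879 lost regions were equalled or passed by 7 of the 15 choices, the contrast included (range 543 to 1689, median 818, exact one-sided p = 0.467). The 238 gained regions were equalled or passed by 13 of the 15 (range 225 to 487, exact one-sided p = 0.867). Neither count stood apart from what other pairs of libraries gave.

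The 40 lost windows were equalled or passed by 3 of the 15 choices, the contrast included (range 7 to 81, median 15, exact one-sided p = 0.2), and the 9 gained windows next to last (range 6 to 59, exact one-sided p = 0.933). Bases covered in both Control libraries and in none of the 4 summed to 0.780 Mb (range 0.521 to 0.958 Mb, exact p = 0.2), and bases covered in the reverse way to 0.171 Mb (exact p = 0.933). More was lost than gained at each level. A gain needs 4 libraries and a loss 2, and the median over the 15 choices was likewise 818 lost and 313 gained regions. The choice of both FK866 plus succinate libraries as the odd pair gave 1459 and 487 regions, the highest total, and the choice of both FK866 libraries gave 607 and 379.

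List length moved with these counts. The Control lists held 50489 and 41023 peaks, of which 27200 and 28269 passed an adjusted p of 0.05, and the 4 FK866 lists held 40320 to 56361, of which 25187 to 28252 passed. Peaks covered 43.8 and 39.4 Mb in Control and 39.0 to 43.7 Mb in the 4. The number of reads behind each list is unknown. A local background was estimated from the spacing of the commonest fold values, taking 1 as added to reads and to background. It was 1.85 and 2.14 fragments in Control, 2.11 and 1.60 with FK866, and 1.74 and 1.25 with FK866 plus succinate. The lowest estimate belonged to the longest list, FK866 plus succinate 2. Weak peaks thus rest on few fragments. The highest lost count, 1689 regions and 81 windows, came from the pair of the longest lists, Control 1 and FK866 plus succinate 2. With every list cut to the length of the shortest, the contrast lost 779 regions (exact p = 0.2) and 40 windows, now the highest of the 15 choices (exact p = 0.0667, the smallest possible), and 0.708 Mb of lost bases were also the highest (exact p = 0.0667). Gained windows were then 9, the lowest of the 15 (exact p = 1). Leaving out Control 1 gave 5663 lost regions and 89 lost windows (exact p = 0.8 for both), and leaving out Control 2 gave 11548 and 239 (exact p = 0.4 for both), since a loss then needs 1 Control list only.

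With peaks past an adjusted p of 0.05 only, the 6 lists merged into 43759 regions. Of these 403 were lost (0.921%) and 77 gained (0.176%), and among gene windows 36 were lost (0.227%) and 3 gained (0.0189%). The lost regions and the lost windows each came second of the 15 choices (exact one-sided p = 0.133 for both, ranges 169 to 491 and 9 to 46). The gained counts lay at the low end, with exact p = 0.867 for regions and 1 for windows. The pair of FK866 plus succinate libraries again stood furthest out on the gained side, with 476 regions and 103 windows.

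**Figure D3:**
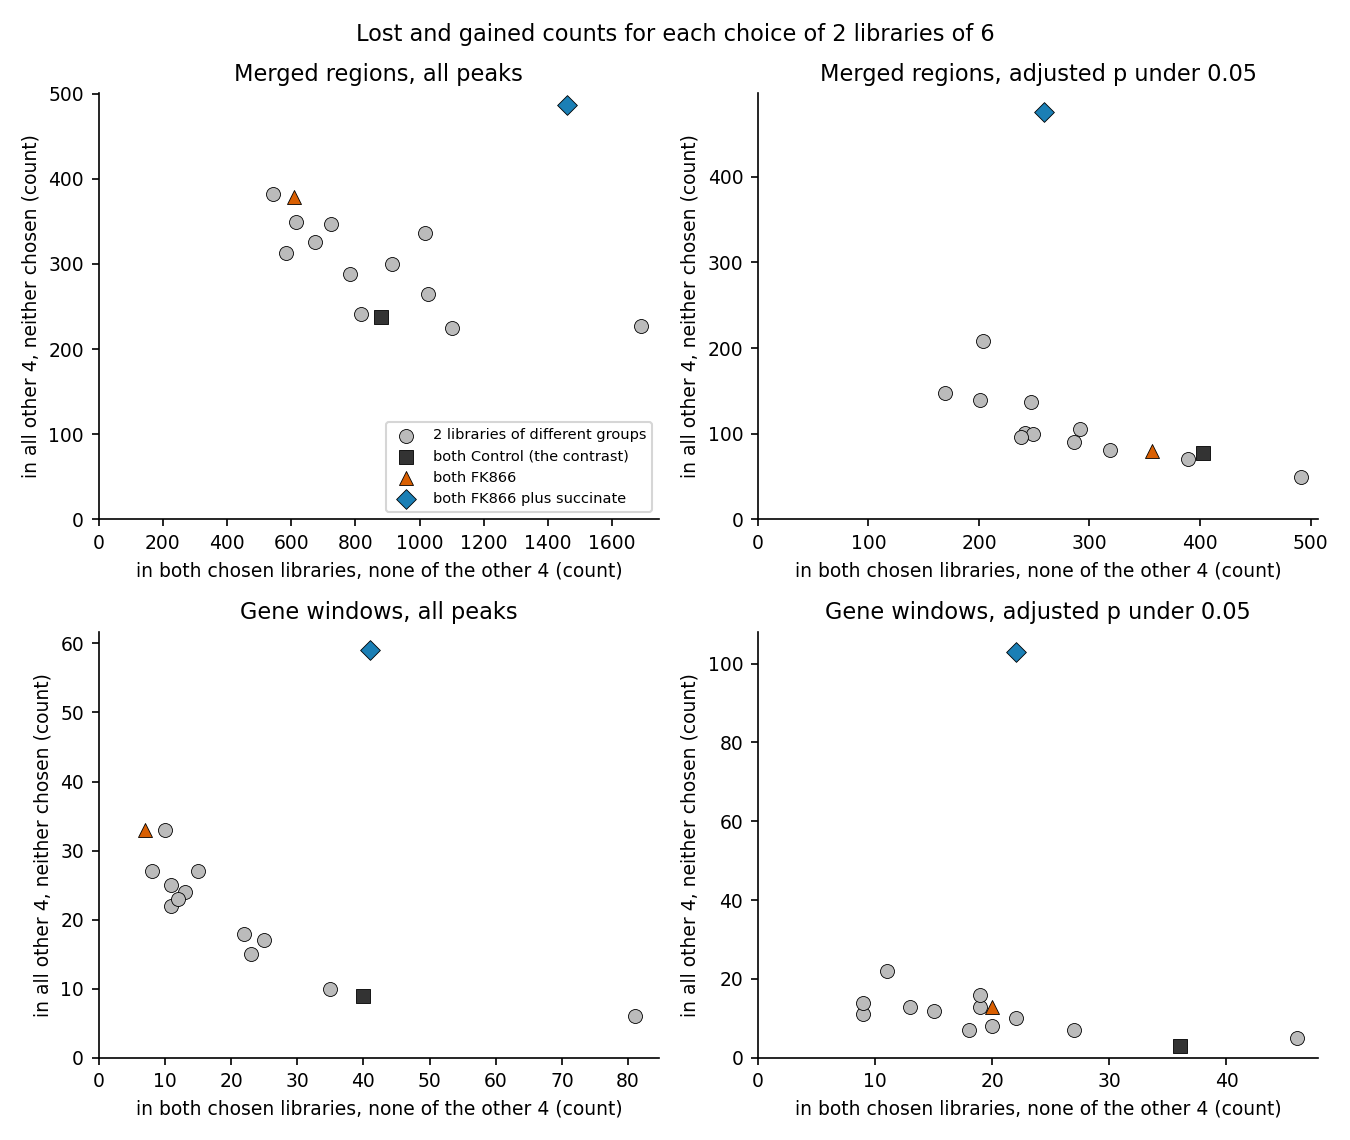
Lost count (x axis) against gained count (y axis) for each of the 15 choices of 2 libraries of 6, for merged regions and gene windows with all peaks and with peaks past an adjusted p of 0.05. The Control pair (black square) lies inside the cloud for regions with all peaks (879 and 238) and towards its lower right for windows at the adjusted p (36 and 3), and the FK866 plus succinate pair (blue diamond) has the highest gained count in every panel.

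The members depended on the peak threshold. Of the 879 lost regions 79 were also lost at the adjusted p, which is 8.99% of the first list and 19.6% of the 403. Of the gained regions 10 were shared, 4.20% of the 238 and 13.0% of the 77. Among windows 10 were lost in both ways, 25% of the 40 and 27.8% of the 36, and no gained window was shared. Those 10 were Kcns3, Cpne8, Kcnk18, Fat2, C2cd4b, Gm5709, Phldb2, Gbgt1, Myocos and Tdg-ps.

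Of the 36 windows lost at the adjusted p, 10 had no peak at all in the 4 FK866 libraries, and the others had a weaker one in 1 or more. Among the others were Kcnn2, a calcium-activated potassium channel gene (29.7% and 22.5% in Control), Rspo3, which amplifies Wnt signalling (19.2% and 31.2%), and Foxa2, a regulator of endoderm (19.1% and 23.5%). Lpl, lipoprotein lipase, had 13.7% and 14.6%, and Csf3, the gene for G-CSF, 7.97% and 9.40%. At Csf3 weaker peaks lay in the window in all 4 FK866 libraries, covering 11.6% and 23.6% with FK866 and 9.38% and 13.4% with FK866 plus succinate. The 3 gained were Slc7a7, an amino acid transporter (35.9%, 10.7%, 9.25% and 28.3% in the 4 libraries), Tmem274 (19.9%, 20.2%, 22.4% and 17.4%) and Mesp2, a mesoderm transcription factor (12.2%, 18.6%, 12.9% and 17.7%). Weaker peaks lay in the windows of Slc7a7 and Tmem274 in Control 1 and of Mesp2 in both Control libraries.

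The lost regions were short and weak. Their median width was 582 bp and their median rank was the 26.3th percentile of -log10 p, beside 1606 bp and the 75.7th percentile for regions held by all 6 libraries. Other regions held by 2 libraries had a median width of 582 bp and lay at the 25.8th percentile. By position, 18.1% of the lost regions were at most 2 kb from where a coding gene starts or stops, 51.8% were deeper in a gene and 30.1% lay between genes. The first of these shares was second among the 15 choices (range 12.7% to 18.7%, exact two-sided p = 0.2), and for all-library regions it was 55.0%.

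The gained regions had a median width of 838 bp, a median rank at the 32.7th percentile, and 17.2% near a gene end. Other regions held by 4 libraries had 879 bp, the 33.4th percentile and 18.3%. Among the 15 choices, the exact two-sided p for width was 0.733 for lost and 0.133 for gained regions, and for rank 0.8 and 0.733.

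Single regions give the scale. The widest lost region, 1705 bp at chr17:56108409-56110113, lay at a boundary of Plin4, a lipid droplet coat protein gene. Boundaries were read without regard to strand. The next lay near Eif1b, near Abtb2, and inside Csrnp2 and Gpat2, a glycerol-phosphate acyltransferase gene. The strongest by rank lay near Emb (chr13:117216053-117216407, 62.4th percentile), near Ttc39b, inside Lemd1 and Mras, and near a boundary of Tle2, a co-repressor gene. All 5 were also lost at the adjusted p. The widest gained region, 2339 bp at chr8:105771492-105773830, lay inside Ranbp10, followed by regions at Fsd1 and Stap2, near Clk1, near Foxa3 and inside Ralgps1. The strongest gained regions lay far from Obi1 (chr14:104715764-104716074, 68.6th percentile), near Cemip, at Sys1, near Efna2 and inside Cry1, the gene of a circadian repressor, and these 5 were also gained at the adjusted p.

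Pairs of libraries within the 2 sets were no more alike than pairs across them. The mean Jaccard index, the share of covered bases in common, was 0.560 within and 0.569 between (difference -0.00913, exact one-sided p = 0.6). The 2 Control libraries shared 0.585, pairs of FK866 libraries 0.516 to 0.613, and pairs across the contrast 0.502 to 0.634.

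Coverage of 15168 gene windows was compared next with limma, in a fit of 3 groups with the contrast of the mean of both FK866 groups minus Control. No window passed an adjusted p of 0.05 (0%), and the smallest adjusted p was 0.244. At an unadjusted p under 0.05, 212 windows were wider with FK866 (1.40%) and 1061 narrower (6.99%). Both Control libraries lay below all 4 FK866 libraries in 431 windows (2.84%) and above all 4 in 1568 (10.3%). These counts describe the ranking and call no gene.

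The size of that imbalance depended on scaling, and so did its direction for the windows without overlap, though not for those at an unadjusted p under 0.05. Without scaling the median difference over all windows was -0.76 points, and after quantile normalization it was 0.32. The windows at an unadjusted p under 0.05 were then 434 wider and 627 narrower, so that wider windows made up 40.9% in place of 16.7%, and the windows without overlap were 1226 wider (8.08%) and 927 narrower (6.11%). Beside Control the median difference was -0.05 points for FK866 and -1.54 for FK866 plus succinate. Both comparisons use the same Control libraries. Among the 1061 narrower windows the median difference was -3.88 points for FK866 and -8.81 for FK866 plus succinate, and the latter was larger in 889 (83.8%). In the 212 wider windows the medians were 6.76 and 7.11.

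The window at the top of the ranking was that of Mlxipl, which encodes ChREBP, a glucose-responsive transcription factor (chr5:135132510-135136509, inside the gene). Control coverage was 49.4% and 48.5%, FK866 coverage 31.9% and 31.1%, and FK866 plus succinate coverage 31.0% and 31.7%. Control lay above all 4, a condition for naming the window, and the SD was 0.672 over Control and 0.413 over the 4. The difference was -17.52 points (SE 1.05), with an unadjusted p of 1.61e-05 and an adjusted p of 0.244 by limma. All 6 libraries had the main peak. In Control the covered stretch reached to lower coordinates, with a separate peak at chr5:135132838-135133503 in Control 1 and an edge at position 135133209 in Control 2. In the 4 FK866 libraries the first peak began between 135133574 and 135133866. With 2 groups in place of 3 in the fit, its adjusted p was 0.0519.

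Other narrower windows with the smallest p came from genes of varied function, after Fmn2. Adarb1, an RNA-editing deaminase, had 57.8% and 58.5% in Control, 47.9% and 49.1% with FK866, and 45.7% and 47.9% with FK866 plus succinate. Atf1, a CREB family factor, had 64.5% and 65.3%, then 54.1% and 57.2%, then 51.8% and 52.0%. Dlgap2, a postsynaptic scaffold, had 36.9% and 32.7%, then 7.92% and 7.58%, then 14.8% and 7.62%. By the rule that chose these windows, all 4 FK866 libraries stood below both Control libraries at Adarb1, Atf1 and Dlgap2. At Adarb1 the direction turned in 2-kb windows (a difference of 2.41 points).

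Krtcap2, an oligosaccharyltransferase subunit whose window is shared with Trim46, had a Control mean of 72.5% ± 0.530 and 60.4% ± 2.46 over the 4 (SD, n = 2 and 4). Nol4l had 54.5% ± 0.442 and 44.7% ± 1.07, and Trim9, a ubiquitin ligase, 45.9% ± 4.40 and 22.2% ± 4.94. At Fam217b, which shares its window with Ppp1r3d, a glycogen-targeting phosphatase subunit, nearly all of the difference lay in the FK866 plus succinate libraries. Its values were 61.9% and 61.0% in Control, 60.6% and 60.6% with FK866, and 46.1% and 45.7% with FK866 plus succinate. Shld1, a shieldin subunit in DNA repair, was also lowest with FK866 plus succinate, with 49.6%, 46.2% and 36.2% as group means.

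The wider windows with the smallest p included a receptor of type 2 lymphocytes. Ccr4, the receptor for CCL17 and CCL22 (chr9:114493177-114497176, inside the gene), had 53.7% and 56.7% in Control, 61.9% and 62.9% with FK866, and 63.1% and 61.7% with FK866 plus succinate. The difference was 7.17 points (SE 1.25), with an adjusted p of 0.354 by limma. Thbd, thrombomodulin, had 51.1% and 50.9%, then 56.7% and 58.8%, then 59.2% and 59.0%. Eps8, an actin regulator, had 34.3% and 39.2%, then 56.1% and 50.8%, then 50.6% and 49.0%. In Ccr4, Thbd and Eps8 no FK866 library reached down to a Control value, which the rule that chose these windows required.

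Trim12a, a TRIM family gene, had group means of 36.7%, 41.8% and 52.5%, and Hey2, a Notch target, 34.0%, 43.8% and 41.1%. Iqsec2, an ARF exchange factor, had 55.8%, 63.2% and 62.9%, and Mettl5, a ribosomal RNA methyltransferase, 41.6%, 49.2% and 50.5%. Klhl28, which shares its window with Togaram1, Cxxc4, a Wnt inhibitor, and Lzts2 differed from Control by 8.19, 6.38 and 9.73 points, and Klhl28 by -0.96 points in 2-kb windows. Every one of these 20 windows had an adjusted p of 0.244 or more.

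**Figure D4:**
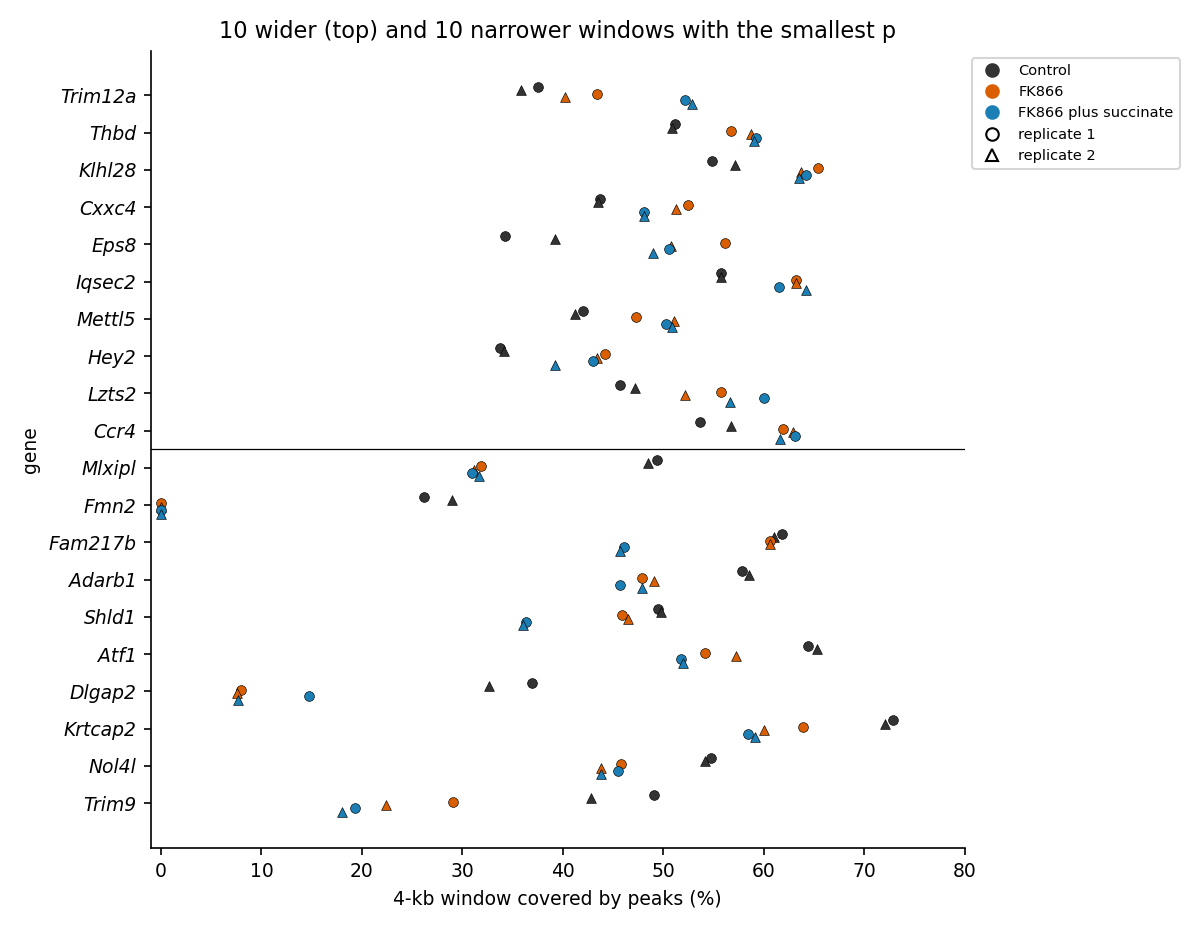
Percentage of the 4-kb window covered by peaks (x axis) in each library for the 10 wider (above the line) and 10 narrower windows with the smallest unadjusted p in limma, where Control lies apart from all 4 FK866 libraries. Colours are groups and shapes are replicate numbers. At Mlxipl the 4 FK866 libraries sit between 31.0% and 31.9% and Control at 48.5% and 49.4%, while at Fam217b the FK866 libraries lie beside Control.

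Nampt, the target of FK866, did not separate Control from the 4. Its window (chr12:32818956-32822955) was covered to 53.1% and 53.0% in Control, 53.0% and 59.6% with FK866, and 43.8% and 44.2% with FK866 plus succinate. The shared difference was -2.89 points (SE 2.01, adjusted p = 0.785 by limma), with Control between the FK866 groups.

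The lists of the pathways that NAMPT inhibition and succinate touch were read against the whole table, in which 10.3% of windows were narrower and 2.84% wider without overlap. For NAD synthesis, 2 of 19 tested members were narrower without overlap, Naprt and Nmnat3, and 1 was wider, Qprt. Qprt encodes an enzyme that uses quinolinate in a route to NAD that bypasses NAMPT. Its window had 35.6% and 43.3% in Control, 48.4% and 48.1% with FK866, and 44.5% and 43.4% with FK866 plus succinate (adjusted p = 0.559 by limma). The difference was 6.65 points, and Control 2 at 43.3% lay beside the lowest of the 4 at 43.4%. Naprt, the nicotinate salvage enzyme, had group values of 32.9% and 32.2%, then 32.1% and 31.1%, then 29.4% and 30.6%.

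NAD-consuming enzymes had 1 of 23 members on either side, Sirt4 wider and Parp10 narrower, with a list median of 0.26 points. TCA cycle genes had 6 of 25 narrower (24.0%, beside 10.3% of all windows) and 1 wider (4%, beside 2.84%). Among the narrower were Aco1, Idh3g and the malic enzyme gene Me2, and the wider was Suclg1, a subunit of the ligase that makes succinate from succinyl-CoA. Idh3g, whose window is shared with Ssr4, was barely apart, with 59.65% in Control 1 and 59.625% in FK866 replicate 1. Its difference from Control was -1.85 points for FK866 and -6.24 for FK866 plus succinate. Suclg1 had 40.4% and 44.8% in Control, 47.2% and 51.7% with FK866, and 46.6% and 50.9% with FK866 plus succinate. Aco1, the cytosolic aconitase, had 44.8% and 42.6%, then 38.6% and 38.4%, then 39.5% and 38.0%. The adjusted p values of Suclg1 and Aco1 were 0.559 and 0.428 by limma, and the list median was -1.17 points beside -0.76 over all genes.

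The median of the TCA list after quantile normalization was -0.23 points beside 0.32 over all genes. Glycolysis had 1 of 24 members narrower without overlap, Mlxipl itself, which the list holds as a regulator, and none wider. The respiratory chain and lipid metabolism had 2 of 24 narrower each (8.33%) and none wider. HIF pathway genes had 1 of 12 and stress response genes 1 of 26. These shares lie around or below the 10.3% of the whole table.

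DNA and histone methylation genes, some of them demethylases that use a TCA cycle intermediate, had 4 of 25 wider without overlap (16.0%, beside 2.84%). A single member was narrower (4%, beside 10.3%). After quantile normalization 8.08% of all windows were wider without overlap, and the share of this list was not counted. The wider were Suz12, Dnmt3a, Tet2 and Kdm3a. At Tet2, a DNA demethylase, coverage was 56.0% and 55.0% in Control, 56.9% and 58.4% with FK866, and 57.3% and 58.3% with FK866 plus succinate, with a nearest gap under 1 point. None of the 4 passed an unadjusted p of 0.05. The narrower member, Kdm5c, had 48.5% in both Control libraries, 47.7% and 47.3% with FK866, and 41.2% and 42.1% with FK866 plus succinate.

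All 12 ILC2 markers were covered in all 6 libraries, with a mean of 66.8% and 67.3% in Control and 66.9% to 69.4% in the 4. Of the 12, 2 were narrower without overlap (16.7%, beside 10.3%), Il1rl1, the IL-33 receptor, and Arg1, and none was wider without overlap. Il13, a cytokine that defines ILC2s, had 60.6% and 55.5% in Control, 72.8% and 76.9% with FK866, and 74.9% and 60.3% with FK866 plus succinate, so that 1 FK866 plus succinate library overlapped Control. Its difference was 13.20 points with an adjusted p of 0.549 by limma. Arg1, an arginase expressed by ILC2s, had 75.6% and 73.5%, then 72.0% and 53.0%, then 56.8% and 62.7%, with both Control libraries above all 4 and a difference of -13.43 points (adjusted p = 0.619 by limma). Gata3 and Rora, the transcription factors of the lineage, differed by -0.35 and -0.02 points.

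ILC2 cytokine genes had no member without overlap in 12 tested. ILC2 receptors had 2 of 24 wider (8.33%, beside 2.84% of all windows), Ccr4 among them, and 2 narrower (8.33%, beside 10.3%). ILC2 transcription factors had 1 of 20 narrower (5%), Zbtb16. There the FK866 plus succinate libraries both had 0% and the FK866 libraries 19.5% and 15.2%, beside 19.6% and 20.1% in Control. STAT and SOCS genes had 2 of 16 narrower (12.5%) and AP-1 genes 1 of 20 (5%), near or below the 10.3% of all windows. The AP-1 member was Batf3, which differed by 2.15 points the other way in 2-kb windows, with 40.02% and 38.4% in Control, 17.5% and 17.5% with FK866, and 29.8% and 35.9% with FK866 plus succinate. NF-kB genes had 1 of 18 (5.56%), Nfkb1, with Control at 77.3% and 77.1% and the 4 between 66.3% and 73.4%.

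Interferon-stimulated genes show how a shared contrast can rest on one group. At an unadjusted p under 0.05, 5 of 18 were wider (27.8%, beside 1.40% of all windows), yet none was free of overlap. At Ifit1 the values were 7.78% and 9.95% in Control, 8.15% and 10.2% with FK866, and 36.2% and 52.0% with FK866 plus succinate. Rsad2, Oas3, Oasl1 and Ifi206 likewise had FK866 values within or near the Control values and higher ones with FK866 plus succinate.

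Cell cycle genes had 8 of 29 narrower at an unadjusted p under 0.05 (27.6%, beside 6.99%), of which 4 were without overlap (13.8%, beside 10.3%). These were Ccna2, Ccnb1 and Ccnd1, which encode cyclins, and Aurka, a mitotic kinase. The window of Ccna2 is shared with Bbs7 and that of Aurka with Cstf1. Ccna2 had 60.7% and 58.5% in Control, 57.2% and 57.5% with FK866, and 49.7% and 48.7% with FK866 plus succinate. At Mcm3, Pcna, Birc5 and E2f2 the FK866 libraries overlapped Control, and E2f2 was wider with FK866 in 2-kb windows (4.55 points). The list means were 52.8% and 53.4% in Control, 52.2% and 52.6% with FK866, and 49.7% and 48.9% with FK866 plus succinate. Most of the list's shift thus lay in the FK866 plus succinate libraries. Over all genes with a lead site the means were 37.5% and 37.3%, then 37.0% and 37.1%, then 35.6% and 35.6%. Housekeeping genes had 1 of 15 narrower, and developmental regulators 2 of 16.

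**Figure D5:**
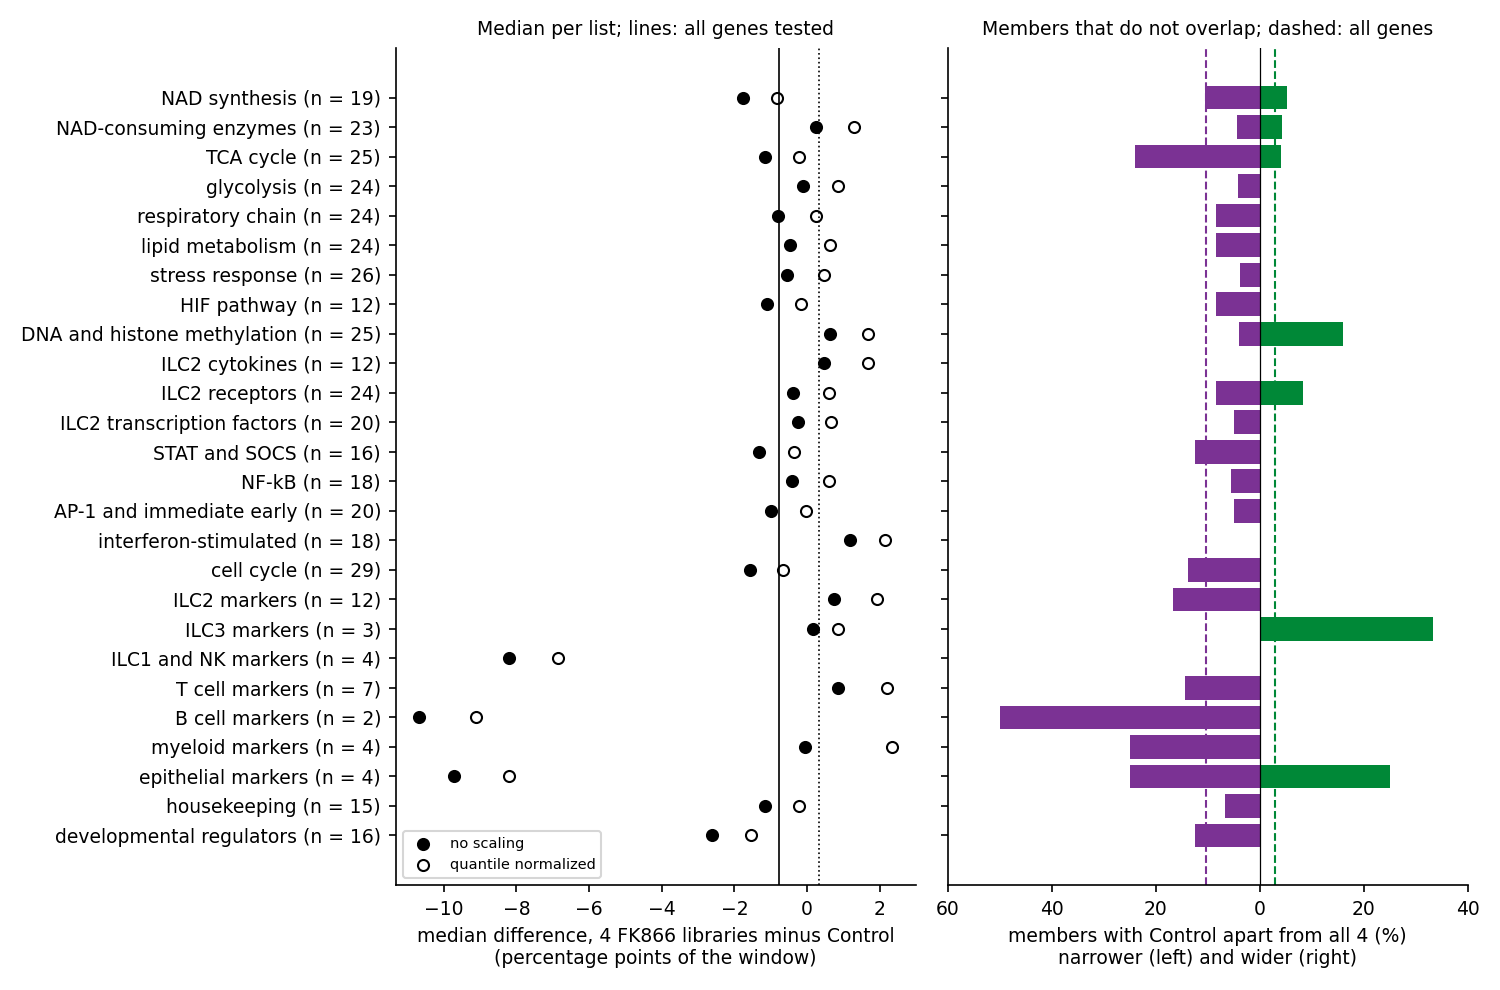
Left, median difference in window coverage (4 FK866 libraries minus Control, percentage points) for each of 26 gene lists without scaling (filled) and after quantile normalization (open), with lines at the medians of all genes tested, -0.76 and 0.32. Right, share of members whose 2 Control values lie above all 4 FK866 values (purple) or below them (green), with dashed lines at the 10.3% and 2.84% of all genes. TCA cycle genes reach 24.0% on the narrower side and DNA and histone methylation genes 16.0% on the wider side, and the longest bars belong to lists of 2 to 4 tested members.

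Markers of other cells were less covered and more uneven. The mean over T cell markers was 23.3% and 28.8% in Control and 18.04% to 30.2% in the 4, and over B cell markers 18.8% and 26.6%, then 12.1% to 21.3%. Myeloid markers had 8.53% and 10.4%, then 4.89% to 10.8%, epithelial markers 20.4% and 32.9%, then 9.42% to 25.5%, and ILC1 and NK markers 32.6% and 40.4%, then 24.3% to 32.8%. ILC3 markers had 14.8% and 24.7%, then 18.7% to 26.6%, and of these Ahr, a ligand-activated factor, was wider in all 4 (52.3% to 56.0%) than in Control (48.6% and 47.7%). Peaks in all 6 libraries were present at 6 of 8 T cell, 1 of 4 B cell, 1 of 5 myeloid, 2 of 5 epithelial, 3 of 6 ILC1 and NK and 2 of 7 ILC3 markers. No library had a peak in or within 2 kb of Cd8a, Ms4a1, Adgre1, Krt20, Ifng, Klrb1c, Il17a, Il23r or Ncr1. Of the 4 myeloid markers tested, 2 were wider and 2 narrower on average in the 4 (median -0.05 points, and 2.33 after quantile normalization). The one without overlap was Spi1, a myeloid transcription factor, with 34.9% and 27.4% in Control and 19.9%, 21.6%, 10.3% and 12.8% in the 4. The part of other cell types in the lost windows was not tested.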

How the data were processed

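CUT&Tag libraries of cultured mouse ILC2s (2 in each of 3 groups) were given as 6 peak lists, called per library. The submitters' processing notes name cutadapt 1.9, Bowtie2 2.5.0 and mm10. Not given in the sources used here is the peak caller. Among the deposited columns, those used are a score, a fold enrichment as a ratio to local background, and the -log10 p and -log10 q of each peak. Each refers to 1 library, so the authors' values were ranked within a list only and no signal height was compared. Read depth is unknown.

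Peaks on chromosomes 1 to 19, X and Y were merged when they overlapped by at least 1 bp (Python 3.11.15, pandas 2.3.3, numpy 2.4.6). Genes came from GRCm38.p6, which shares mm10 coordinates, and 15891 of 21887 protein-coding genes had a lead site. Neighbouring genes can share a window. Counts were tested by exact permutation over the 15 choices of 2 libraries. Windows covered in at least 2 libraries were fitted with limma 3.58.1 (lmFit, eBayes with trend, R 4.3.3), with no scaling and Benjamini-Hochberg adjustment at 0.05. Alternatives were stricter or equal-length lists, 2-kb windows, quantile normalization, other filters, a 2-group fit, a replicate block and leaving out each library. Counting and fit were tested on simulated data.

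The contrast, the gene lists and the rules were chosen with earlier results of these data known. Genes were named by rule: lost or gained windows by coverage (up to 15 each way, 1 per shared window), the 10 wider and 10 narrower non-overlapping windows with the smallest p, non-overlapping list members at an unadjusted p under 0.05 (up to 4 a list), Nampt, the 5 widest and 5 strongest regions each way, and up to 6 promoters each way by coverage. Genes named outside this rule were chosen after their values were seen. List symbols not in the gene table were matched through synonyms, and promoter sequences are RefSeq's.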

Additional observations from a re-analysis of the deposited data

Results flagged for a closer look

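Peaks on sequences outside the 21 chromosomes did not enter the comparisons. They formed 72 merged regions. All 6 libraries had a peak in 33 of them. Both Control libraries and none of the 4 FK866 libraries had one in 2, and all 4 FK866 libraries and neither Control had one in 1. That 1 region is listed because it is signal in data that the comparisons left out and because the Control libraries had no peak there. No group was examined for outlying samples, since each group holds 2.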

How the results depend on the processing

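Counts of lost and gained regions, windows and bases moved with how peaks were counted. The smallest exact p the design allows, 0.0667, was reached with lists of equal length, for lost windows (40) and lost bases (0.708 Mb). Without FK866 plus succinate replicate 2, lost bases (1.06 Mb) had an exact p of 0.1, the smallest that 5 libraries allow when 2 are Control. With peaks past the adjusted p, 403 regions were lost and 77 gained, 3 windows were gained, and 0.461 Mb were lost and 0.106 Mb gained. With the higher-scoring 50% of each list the counts were 150 and 48 regions, 3 gained windows, and 0.299 and 0.0885 Mb. Allowing 1 of the 4 FK866 libraries to differ gave 2415 and 1586 regions. Leaving out each library in turn gave 1225 to 11548 lost and 486 to 828 gained regions, 49 to 239 lost and 13 to 65 gained windows, and 1.04 to 7.77 Mb lost and 0.384 to 0.572 Mb gained, since fewer lists then have to agree.

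In limma, windows of 2 kb gave 7 windows past an adjusted p of 0.05 in place of 0. They were Tmcc2, Efcab9 with Stk10 in a shared window, Bcar3, Cyp1b1, E2f2 and Galc, with 100% coverage in 2 or more libraries at each. At Tmcc2, Cyp1b1 and Galc both FK866 libraries had 100%, as Control did. E2f2, wider there, was narrower in 4-kb windows. At an unadjusted p under 0.05 the 2-group fit gave 138 wider and 643 narrower windows, and quantile normalization 434 and 627. Leaving out each library gave 190 to 333 wider and 869 to 1179 narrower and 0 at the adjusted p each time. Same-numbered libraries did not deviate together (correlations 0.027, -0.035 and 0.015 over 15168 windows), and with the replicate number as a block 0 windows passed, with 214 wider and 993 narrower at an unadjusted p under 0.05. Of 889 values for 66 named genes under 14 alternatives, 886 kept direction and side of the threshold. The naming largely fixed this agreement, so it is no measure of how firm the differences are. All named genes but Nampt had Control apart from all 4, so leaving out a library could not reverse them. No window passed the adjusted p in the main fit or in any alternative but 2-kb windows. The 3 that reversed did so with 2-kb windows: Klhl28 at -0.96, Adarb1 at 2.41 and Batf3 at 2.15 points. The cause was not tested. With 2 Control libraries, and depth unknown as read counts, a weak peak missing from a list is not shown to be absent from the cells.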
